A study of Mus musculus with 6 samples.

Results

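Splicing events were described for 5 genes of the extracellular matrix, Fn1, Bmp1, Serpinh1, Postn and Abi3bp, and for Itga6, which encodes a matrix receptor. The members were all events listed under these 6 gene symbols, numbered by their order within the gene. They came to 16 events, out of 4658 events in 2685 genes that could be compared across all 6 libraries. The 2 Bmp1 rows were identical throughout and hold a single measurement, which leaves 15 distinct events; counts below are over these 15 unless the 16 listed rows are named.

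The cells were primary mouse medullary thymic epithelial cells (mTECs), sorted as CD45- EpCAM+ Ly51- I-A/E+ cells, which present self antigens to developing T cells. They were grown on human dermal fibroblasts in a fibrin gel, infected with lentivirus carrying a short hairpin RNA and eGFP, and sorted 5 days later as viable, MHC class II positive and GFP positive cells. The 2 Raver2 knockdown libraries carried hairpins sh1 and sh2 against Raver2, which encodes an RNA-binding protein that acts with the splicing repressor PTB. The 2 Setd2 knockdown libraries carried hairpins sh1 and sh2 against Setd2, the histone H3 lysine methyltransferase of transcribed genes. Both Ctr libraries carried a hairpin against bacterial LacZ, which mouse cells lack. The study asked how each knockdown alters the inclusion of alternative splicing events. Nothing in the labels tells whether the libraries within a group had separate animals or cultures as their source. The p-values thus reflect how much these 6 libraries vary, and that variation could be technical. In the knockdown groups it also holds the difference between hairpins.

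Each value was an inclusion fraction, from 0 (the event is never included) to 1 (always included), computed by the authors. No read counts accompany the fractions, so the depth is unknown, and nothing here gives the expression level of a gene. How far each knockdown lowered its target could thus not be checked. The libraries listed 4777 to 4949 events each, and all of them listed all 16 events of the 6 genes. Of the markers chosen for other cell types, 0 of 10 fibroblast genes had a listed event, and among the 10 leukocyte genes 3 had one, namely Cd8a, Lck and Ptprc. Of 10 thymic epithelial genes, Aire and Cd74 had listed events. A listed event does not measure how many cells of a type were present, and the part of fibroblast RNA in the results was not tested.

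The extracellular matrix is a network of secreted glycoproteins and collagens that cells build, remodel and hold on to. Fibrillar procollagens fold in the endoplasmic reticulum with the chaperone HSP47, the product of Serpinh1, and lose their propeptides outside the cell to proteases such as that encoded by Bmp1. Fibronectin (Fn1), periostin (Postn) and the secreted protein of Abi3bp are further matrix components. Cells grip the matrix through integrins, and the alpha 6 chain encoded by Itga6 pairs with a beta chain into a laminin receptor of basal epithelial cells. Fibronectin is a textbook case of alternative splicing: its extra domains EDB and EDA are mostly skipped in the plasma form made by liver and are included in many tissue forms. Periostin varies in its C-terminal region, and the alpha 6 chain has alternative cytoplasmic tails, called A and B.

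The tables name the gene of an event and not its exon. The GENCODE M21 annotation of mm10, the build named in the submitters' processing notes, shows which exons some transcripts include and others skip between the same neighbouring splice sites. Fn1 (chr1:71585520-71653200, minus strand) had 3 such exons, Postn (chr3:54361109-54391037, plus strand) 3, Abi3bp (chr16:56477878-56690135, plus strand) 3 and Itga6 (chr2:71745616-71858416, plus strand) 1. Serpinh1 (chr7:99345376-99353239, minus strand) had 3, none with coding bases. Bmp1 (chr14:70474558-70520234, minus strand) had 0 and a single coding transcript among 7 transcripts, so its listed events match no annotated exon skip of this kind. No event could be tied to any of these exons.

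The coding letters of the exons skipped between coding transcripts of Fn1, Abi3bp and Itga6 are shown as the stretches that annotated transcripts of these genes include or skip; whether a listed event concerns one of them is not known. EDB is the exon at chr1:71613763-71614035, 273 bases, included in 1 coding transcript and skipped in 6. EDA is the exon at chr1:71603660-71603929, 270 bases, included in 4 coding transcripts and skipped in 3. The third Fn1 exon, at chr1:71597642-71597747, is not shown: it has 106 bases, which is not a multiple of 3, and is annotated only in 1 transcript outside the coding class. The Abi3bp exons lie at chr16:56594462-56594536 (75 bases), chr16:56650711-56650770 (60 bases) and chr16:56651307-56651354 (48 bases). EDB, EDA and the 3 Abi3bp exons have lengths divisible by 3, so skipping any of them keeps the reading frame. The Itga6 exon at chr2:71853534-71853663 has 130 bases, of which 105 are coding and encode the alternative end of the cytoplasmic tail. Capitals in it mark the codons of the membrane-proximal motif that integrin alpha chains share. All are written on the gene's strand, 5′ to 3′, from GENCODE M21 transcripts.
Fn1 EDB: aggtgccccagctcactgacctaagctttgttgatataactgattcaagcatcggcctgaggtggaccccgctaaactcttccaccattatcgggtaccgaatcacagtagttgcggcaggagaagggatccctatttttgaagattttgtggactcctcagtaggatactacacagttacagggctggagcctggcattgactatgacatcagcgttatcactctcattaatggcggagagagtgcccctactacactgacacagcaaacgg
Fn1 EDA: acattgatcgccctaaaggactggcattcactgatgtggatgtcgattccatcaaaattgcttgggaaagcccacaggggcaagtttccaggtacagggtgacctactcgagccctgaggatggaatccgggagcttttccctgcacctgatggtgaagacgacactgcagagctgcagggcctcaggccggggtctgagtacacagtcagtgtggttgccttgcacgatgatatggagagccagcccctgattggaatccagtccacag
Abi3bp exon at 56594462: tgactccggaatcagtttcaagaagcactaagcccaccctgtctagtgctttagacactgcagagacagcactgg
Abi3bp exon at 56650711: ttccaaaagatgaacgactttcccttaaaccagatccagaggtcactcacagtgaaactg
Abi3bp exon at 56651307: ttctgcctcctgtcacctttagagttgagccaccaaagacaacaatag
Itga6 exon at 71853534: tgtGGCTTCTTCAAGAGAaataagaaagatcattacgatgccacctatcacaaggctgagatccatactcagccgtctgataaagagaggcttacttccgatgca

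Differences were fitted with limma over all 4658 events and all 6 libraries, and p-values were adjusted by the Benjamini-Hochberg method over all events. An event is called where the adjusted p is under 0.05. The 6 genes were proposed with results of these same libraries in view, and the comparisons that led to the choice are not stated. Their calls and p-values are therefore a description of where they lie in the fit over all events, not independent evidence. Both knockdowns were set against the same 2 Ctr libraries, so a like difference in both is not a second, independent observation. For Raver2 knockdown against Ctr, 7 of the 15 distinct events were called, 2 higher and 5 lower (8 of the 16 listed rows), where 2.43% of all events were called (1.01% higher and 1.42% lower). For Setd2 knockdown against Ctr, 5 of the 15 were called, all lower, where 2.23% of all events were called (0.880% higher and 1.35% lower). Those were all the Serpinh1 events and Fn1 event 2, and the same events made up the lower calls for Raver2 knockdown. Events of the same gene are not independent units, so these counts lean on Serpinh1. Between Raver2 and Setd2 knockdown, 2 of the 15 were called, both higher under Raver2 knockdown (3 of the 16 listed rows), where 0.730% of all events were called (0.408% higher and 0.322% lower). These counts depend on the variance model and on single libraries. Over the 16 listed rows and without a trend in the variance they were 5 for Raver2 and 3 for Setd2 knockdown against Ctr. For Setd2 knockdown they were 2 without Raver2 library 2 and 2 without Setd2 library 1 (1 lower, and Postn event 1 higher), 3 without Raver2 library 1, and 0 with only the 4 libraries compared. The 3 rows called between the knockdowns were 1 on the arcsine or logit scale, with robust moderation, with only the 4 libraries compared, and without Ctr library 1, Ctr library 2, Raver2 library 1 or Setd2 library 2.

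**Figure D1:**
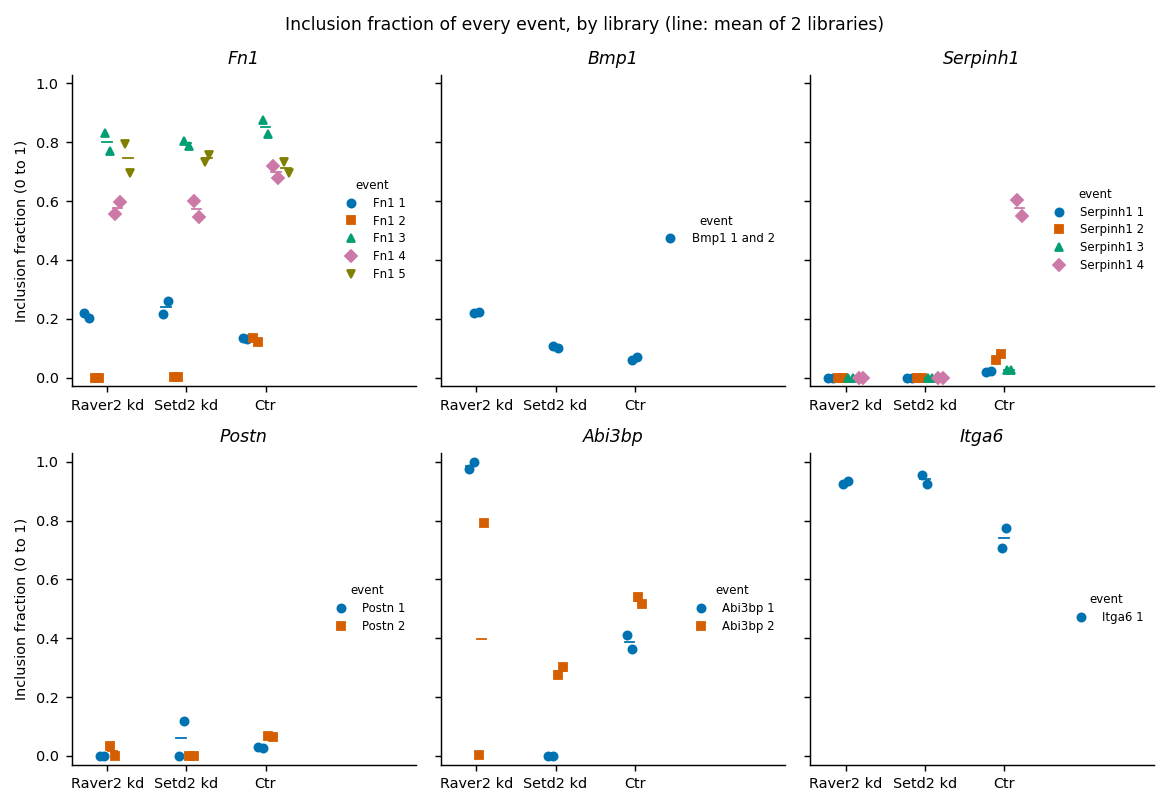
Inclusion fraction (0 to 1, vertical axis) of each distinct event in every library, by gene and group, with 2 points per group and a line at their mean; kd stands for knockdown. All 4 Serpinh1 events lie at 0 in the knockdown libraries on this scale, Abi3bp event 1 lies near 1 under Raver2 and near 0 under Setd2 knockdown, and Itga6 lies above 0.9 in every knockdown library.

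Serpinh1 showed the same picture in both knockdowns: all 4 of its events fell to below 0.001 in all 4 knockdown libraries. Event 4, the most included, was at 6.80e-06 and 0.000199 under Raver2 knockdown and at 4.80e-08 and 2.58e-07 under Setd2 knockdown, against 0.603 and 0.5504 in Ctr. Both Ctr libraries stood far above all 4 knockdown libraries, with no overlap. The difference was -0.577 ± 0.0236 (SE) in each comparison (limma, adjusted p = 0.00520 for Raver2 and 0.00610 for Setd2 knockdown).

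The other Serpinh1 events were rarely included in Ctr too. Event 1 was at 2.89e-07 and 8.13e-07 under Raver2 knockdown and at 3.98e-08 and 2.20e-07 under Setd2 knockdown, against 0.0187 and 0.0221 in Ctr. Event 2 was at 8.26e-05 and 4.67e-05 under Raver2 knockdown and at 0.000114 and 0.000298 under Setd2 knockdown, against 0.0596 and 0.0796 in Ctr. Event 3 was at 1.97e-12 and 1.62e-10 under Raver2 knockdown and at 1.91e-15 and 5.68e-14 under Setd2 knockdown, against 0.0276 and 0.0263 in Ctr. None of these overlapped between knockdown and Ctr, and the differences were -0.0204 for event 1, -0.0695 and -0.0694 for event 2 under Raver2 and Setd2 knockdown, and -0.0270 for event 3. The adjusted p was 0.0187 and 0.0212 for event 1, 0.0429 and 0.0489 for event 2, and 0.00520 and 0.00583 for event 3, with Raver2 knockdown given first in each pair.

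The Serpinh1 calls were not equally firm. Event 1 was called under 6 of 12 other settings in each comparison, and event 2 under 5 for Raver2 and 4 for Setd2 knockdown. Leaving out any 1 knockdown library ended the calls of events 1 and 2, with an adjusted p of 0.0757 to 0.0903 for event 1 and 0.139 to 0.178 for event 2 under Raver2 knockdown. Under Setd2 knockdown the same omissions gave 0.0836 to 0.0989 for event 1 and 0.144 to 0.176 for event 2. Events 3 and 4 were called under 11 of 12 settings for Raver2 knockdown and under 10 and 9 for Setd2 knockdown. Event 3 lost both calls without a variance trend (adjusted p = 0.0930 and 0.0968), and its Setd2 call with only the 4 libraries compared (0.0593). Event 4 lost both calls with only the 4 libraries compared (0.0585 and 0.0729), and its Setd2 call without Raver2 library 2 (adjusted p = 0.0528) or Setd2 library 1 (0.0503). Between the knockdowns, event 4 differed by 0.000103, with a 95% interval of -0.0673 to 0.0675. The fit gives each event a single spread for all groups. For event 4 the SD was 0.0371 in Ctr, 0.000136 under Raver2 and 1.48e-07 under Setd2 knockdown. The width of this interval thus largely reflects the Ctr libraries. The SE of the differences from Ctr pools their spread with the far smaller ones of the knockdown groups.

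**Figure D2:**
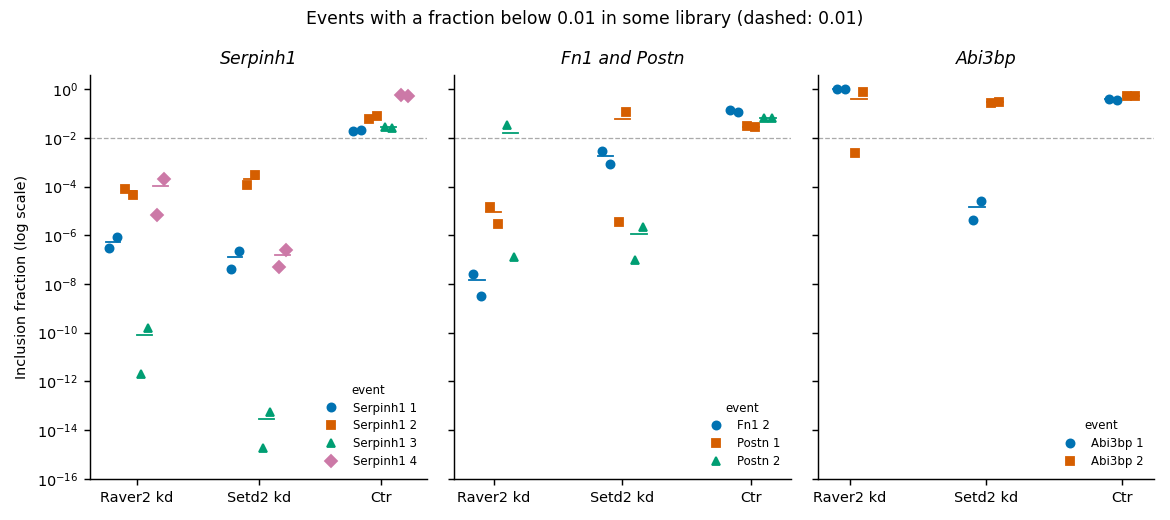
Inclusion fraction on a log scale (vertical axis) for each event of Serpinh1, Fn1, Postn and Abi3bp that fell below 0.01 (dashed line) in at least 1 library, with 2 points per group and a line at their mean; kd stands for knockdown. All Ctr points lie above the dashed line, while the Serpinh1 points of both knockdowns and the Fn1 event 2 points lie below it.

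Very low fractions were counted over all events and among those of the 6 genes. Fractions below 0.001 made up 17.05% and 16.8% of all events in the Raver2 knockdown libraries, 17.3% and 18.8% in the Setd2 knockdown libraries and 16.5% and 16.1% in Ctr. Among the 16 listed rows of the 6 genes there were 6 and 7 in the Raver2 knockdown libraries, 7 in each Setd2 knockdown library and 0 in each Ctr library. In every knockdown library 4 of these were Serpinh1 events. All 16 rows were above 0.01 in both Ctr libraries and could only move into this class. The shares over all events, many of them already this low in Ctr, are thus not a like baseline. The part of coverage in these low values was not tested.

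Bmp1, the procollagen C-proteinase, moved the other way. Its event was included at 0.218 and 0.222 under Raver2 knockdown and at 0.109 and 0.0994 under Setd2 knockdown, against 0.0612 and 0.0699 in Ctr. The 3 groups did not overlap: Raver2 knockdown lay highest, Setd2 knockdown between, and Ctr lowest. Inclusion averaged 0.220 ± 0.00274 under Raver2 knockdown and 0.0655 ± 0.00614 in Ctr (SD, n = 2 each), a difference of 0.154 ± 0.00772 (SE; limma, adjusted p = 0.00784). This event was called under all 13 other settings tried for Raver2 knockdown, with an adjusted p of 0.00643 to 0.0449. Under Setd2 knockdown the difference was 0.0386 ± 0.00772 and was not called (adjusted p = 0.176).

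The direct comparison of the knockdowns gave a Bmp1 difference of 0.116 ± 0.00772 (adjusted p = 0.0315). It was called under 2 of 14 other settings, and leaving out any single library, Ctr included, ended the call (adjusted p = 0.0526 to 0.0730).

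Abi3bp, a secreted matrix protein, had the widest span of the 6 genes. Event 1 was at 0.975 and 0.997 under Raver2 knockdown and at 4.29e-06 and 2.55e-05 under Setd2 knockdown, against 0.410 and 0.364 in Ctr. The event was thus nearly always included under Raver2 knockdown, nearly never under Setd2 knockdown, and in between in Ctr, and the groups did not overlap. The rise under Raver2 knockdown was 0.599 ± 0.0490 (SE; limma, adjusted p = 0.0241). That call was lost without either Raver2 library (adjusted p = 0.0705 and 0.0888 without library 1 and 2) and without either Setd2 library (0.0685 and 0.0650).

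For Setd2 knockdown against Ctr the difference in Abi3bp event 1 was -0.387 ± 0.0490 and was not called (adjusted p = 0.0702), although 4 of 12 other settings called it. These were the arcsine and logit scales, the fit without a variance trend and robust variance moderation, with an adjusted p of 0.0152 to 0.0352. Between Raver2 and Setd2 knockdown event 1 differed by 0.986 ± 0.0490 (adjusted p = 0.0161), and 12 of 13 other settings called it. The exception took the hairpin number as a block (adjusted p = 0.504), and hairpin numbers do not pair libraries of different targets.

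Abi3bp event 2 did not show the same clean separation. It was at 0.00231 and 0.791 under Raver2 knockdown, while the Setd2 knockdown libraries had 0.275 and 0.301 and the Ctr libraries 0.539 and 0.515. The 2 Raver2 libraries lay on opposite sides of Ctr, and their mean difference was -0.130 ± 0.293 (SE; limma, adjusted p = 0.980). Without Raver2 library 1 the difference was 0.264 (adjusted p = 0.315), and without library 2 it was -0.525 (0.0859). The Setd2 knockdown libraries lay below Ctr, by -0.239 ± 0.293, and were not called (adjusted p = 0.823).

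Fn1, which encodes fibronectin, had 5 events at different levels. Event 2 was the one called: it was at 2.49e-08 and 3.29e-09 under Raver2 knockdown and at 0.00278 and 0.000852 under Setd2 knockdown, against 0.135 and 0.120 in Ctr. Every knockdown library lay below both Ctr libraries. The difference was -0.127 ± 0.00590 (SE) under Raver2 and -0.126 ± 0.00590 under Setd2 knockdown (limma, adjusted p = 0.00676 and 0.00811). The Raver2 call was kept under all 12 other settings (adjusted p = 0.000594 to 0.0478). The Setd2 call was kept under 8 of 12, and it was lost with only the 4 libraries compared (adjusted p = 0.0614) and without Raver2 library 1 (adjusted p = 0.0552), Raver2 library 2 (0.0565) or Setd2 library 1 (0.0540).

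The remaining Fn1 events were not called. Event 1 was at 0.218 and 0.201 under Raver2 knockdown and at 0.216 and 0.261 under Setd2 knockdown, against 0.135 and 0.132 in Ctr. In Ctr its level was close to that of event 2, while in every knockdown library it stood above Ctr and event 2 below it. The differences of event 1 were 0.0762 ± 0.0224 and 0.105 ± 0.0224 (SE; limma, adjusted p = 0.345 and 0.201 for Raver2 and Setd2 knockdown).

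Fn1 event 4 was at 0.558 and 0.597 under Raver2 knockdown and at 0.599 and 0.546 under Setd2 knockdown, against 0.720 and 0.678 in Ctr. Its groups were apart as well, by -0.122 ± 0.0395 and -0.126 ± 0.0395 (limma, adjusted p = 0.387 and 0.370). Fn1 events 3 and 5 were included most of the time, at 0.694 to 0.875 over all 6 libraries, and differed by -0.0506 and 0.0318 under Raver2 knockdown and by -0.0546 and 0.0319 under Setd2 knockdown (adjusted p = 0.667 to 0.865).

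Postn, which encodes the matricellular protein periostin, had 2 rarely included events and no call. Event 2 was at 0.0331 and 1.29e-07 under Raver2 knockdown and at 9.59e-08 and 2.19e-06 under Setd2 knockdown, against 0.0684 and 0.0657 in Ctr. All 4 knockdown libraries lay below Ctr, by -0.0505 ± 0.0122 and -0.0671 ± 0.0122 (SE; limma, adjusted p = 0.258 and 0.150 for Raver2 and Setd2 knockdown). Raver2 library 1 stood apart from the other 3 knockdown libraries: without it, both differences were -0.0671 and the adjusted p was 0.00637 for Raver2 and 0.0471 for Setd2 knockdown. Without Raver2 library 2 the adjusted p was 0.0369 and 0.0492.

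Postn event 1 was at 1.50e-05 and 2.80e-06 under Raver2 knockdown and at 3.47e-06 and 0.120 under Setd2 knockdown, against 0.0300 and 0.0278 in Ctr. Setd2 library 2 lay above Ctr and the other 3 knockdown libraries below it. The differences were -0.0289 ± 0.0440 and 0.0311 ± 0.0440 (SE), neither called (limma, adjusted p = 0.898 and 0.864 for Raver2 and Setd2 knockdown). Without Setd2 library 2 the Setd2 difference was -0.0289 (adjusted p = 0.0252) and the Raver2 comparison was called (adjusted p = 0.0337). Without Setd2 library 1 the Setd2 difference was 0.0911 (adjusted p = 0.00835) and the Raver2 comparison was called too (0.0425).

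Itga6, the laminin-binding integrin alpha 6 chain, had 1 event, included more often in every knockdown library. It was at 0.923 and 0.933 under Raver2 knockdown and at 0.956 and 0.924 under Setd2 knockdown, against 0.706 and 0.773 in Ctr. The groups were apart from Ctr, and the 2 knockdowns overlapped each other. The differences from Ctr were 0.188 ± 0.0284 and 0.200 ± 0.0284 (SE), and neither was called (limma, adjusted p = 0.105 and 0.0878 for Raver2 and Setd2 knockdown). Without Ctr library 2 the differences were 0.222 and 0.234, and without Ctr library 1 they were 0.155 and 0.167. No setting that kept both libraries of every group called either difference. Raver2 and Setd2 knockdown differed by -0.0120, with a 95% interval of -0.0932 to 0.0692.

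**Figure D3:**
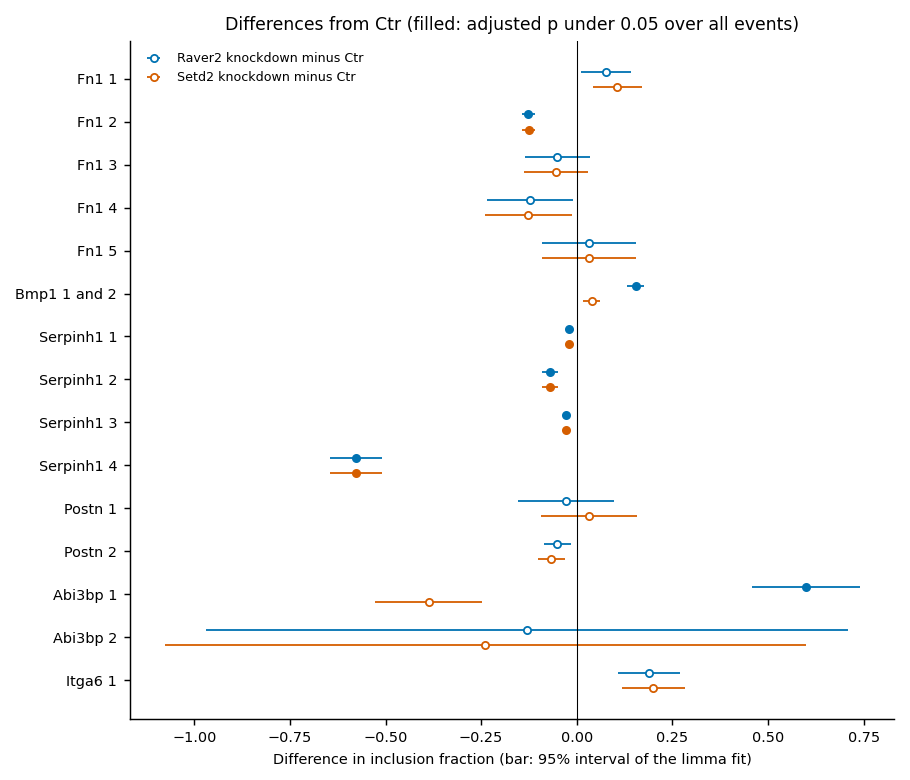
Difference in inclusion fraction from Ctr (horizontal axis) for each distinct event, with Raver2 knockdown drawn above Setd2 knockdown, 95% intervals of the fit as bars, and filled points where the adjusted p was under 0.05. Serpinh1 and Fn1 event 2 are filled and on the same side in both knockdowns, and Abi3bp event 1 lies on opposite sides.

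By position alone, knockdown and Ctr libraries did not overlap in 12 of the 15 distinct events for Raver2 knockdown (4 higher, 8 lower), where 44.0% of all events did not overlap (20.7% higher and 23.4% lower). The count for Setd2 knockdown was 14 of 15 (4 higher, 10 lower), against 42.5% of all events (21.2% higher and 21.3% lower). In both knockdowns all Serpinh1 events were among the lower ones. Between Raver2 and Setd2 knockdown it was 7 of 15 (5 higher, 2 lower), against 33.8% of all events (15.3% higher and 18.4% lower). The median difference of the 15 events was -0.0289 for Raver2 and -0.0546 for Setd2 knockdown against Ctr, and over all events it was -8.92e-07 and 3.08e-11. The medians over all events are not a like baseline. Of all events, 20.6% and 19.8% were below 0.01 in the Ctr libraries, and 13.8% and 12.7% were above 0.99. No event of the 6 genes lay at either end in Ctr.

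**Figure D4:**
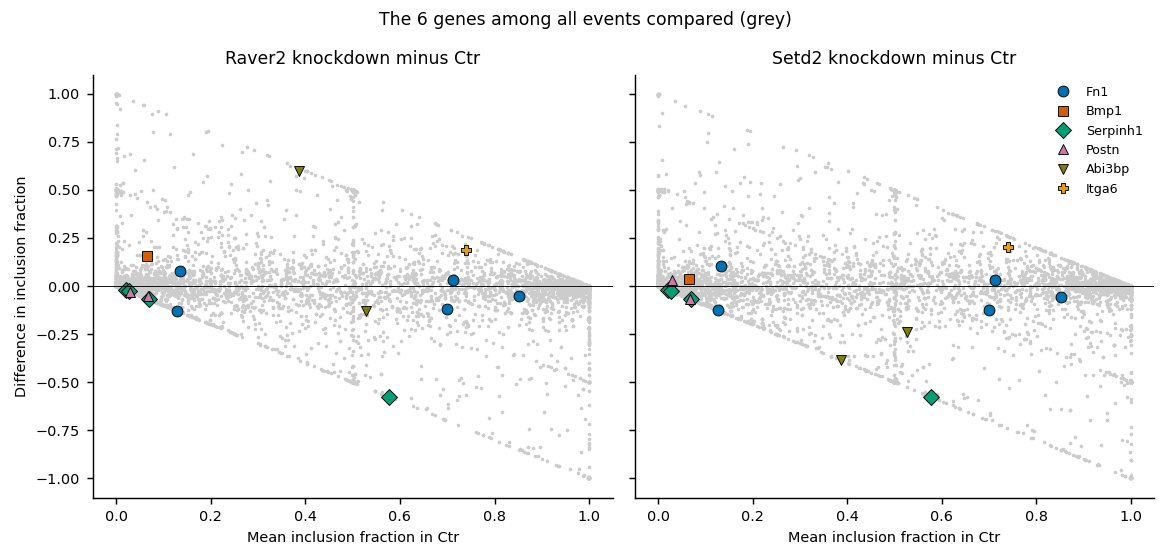
Difference in inclusion fraction from Ctr (vertical axis) against the mean fraction in Ctr (horizontal axis) for all 4658 events in grey, with the events of the 6 genes as coloured symbols, for Raver2 knockdown (left) and Setd2 knockdown (right). Serpinh1 event 4 and, under Setd2 knockdown, Abi3bp event 1 are among the events on the lower edge, where inclusion in the knockdown is 0.

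Other genes of the matrix and of adhesion gave no call. Of 241 further genes, chosen by role as collagens, basement membrane proteins, matrix glycoproteins, matrix enzymes, integrins and other matrix receptors, and focal adhesion proteins, 27 had listed events, 46 in all. limma called 0 of the 46 in each of the 3 comparisons, where 2.43%, 2.23% and 0.730% of all events were called. With shares this low, 0 calls among 46 events does not set these genes apart from all events. An unadjusted p under 0.05 was found for 7 events for Raver2 knockdown against Ctr, 4 for Setd2 knockdown against Ctr and 2 between the knockdowns, where the shares over all events were 12.0%, 11.6% and 6.12%. The median differences of the 46 events were -1.43e-06 and -0.0187 for Raver2 and Setd2 knockdown against Ctr.

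Among the matrix glycoproteins, event 3 of Vcan, which encodes the proteoglycan versican, was above 0.99 in all 4 knockdown libraries, against 0.000126 and 0.388 in Ctr. The difference of 0.806 ± 0.143 (SE) was not called in either comparison (limma, adjusted p = 0.148). Event 2 of Npnt, which encodes the integrin ligand nephronectin, was at 0.249 and 0.301 under Raver2 knockdown and at 0.0722 and 0.000110 under Setd2 knockdown, against 0.0936 and 9.43e-05 in Ctr (adjusted p = 0.200 and 1). Among the collagens, event 1 of Col6a3, a chain of collagen VI, was at 0.99996 and 0.751 under Raver2 knockdown and at 0.875 and 0.353 under Setd2 knockdown, against 0.0858 and 0.0683 in Ctr (adjusted p = 0.298 and 0.498). Event 1 of Col4a5, a basement membrane collagen chain, was at 0.9998 and 0.000412 under Raver2 knockdown and at 0.00169 and 0.00596 under Setd2 knockdown, against 0.931 and 0.703 in Ctr (adjusted p = 0.831 and 0.566). The 1 basement membrane gene listed apart from collagens, Frem1, was at 0.000324 and 3.70e-05 under Raver2 knockdown and at 0.000617 and 0.996 under Setd2 knockdown, against 0.000989 and 0.382 in Ctr (0.965 and 0.837). Single libraries stood apart within a group in both of these genes.

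Among the matrix enzymes, the event of Plod2, a lysyl hydroxylase of collagen, was at 0.257 and 1.00e-05 under Raver2 knockdown and at 0.603 and 0.327 under Setd2 knockdown, against 0.964 and 0.782 in Ctr (limma, adjusted p = 0.208 and 0.483). Adamts10, a secreted metalloprotease, had knockdown values of 0.303 to 0.413, against 0.603 and 0.726 in Ctr (adjusted p = 0.301 and 0.230). For both enzymes the knockdown libraries lay below Ctr without overlap, and neither was called. Among adhesion proteins the smallest adjusted p belonged to event 1 of Lims1, an adaptor of integrin-linked kinase, at 0.00451 and 0.00322 under Raver2 knockdown and 0.00415 and 3.13e-12 under Setd2 knockdown, against 0.0220 and 0.0171 in Ctr (0.119 and 0.0918). Among the matrix receptors, event 1 of Cd151, a tetraspanin partner of laminin-binding integrins, was at 1.04e-05 and 0.251 under Raver2 knockdown and at 0.606 and 0.999 under Setd2 knockdown, against 0.326 and 0.418 in Ctr (adjusted p = 0.712 and 0.522). The event of the integrin chain Itgb5 was at 0.934 to 0.999998 in the knockdown libraries, against 0.992 and 0.980 in Ctr (adjusted p = 1 and 0.546). The event of Tgfb1i1, a focal adhesion adaptor, was at 0.00654 and 0.00961 under Raver2 knockdown, while Setd2 library 2 had 0.0113 and Setd2 library 1 and both Ctr libraries were above 0.99 (adjusted p = 0.434 and 0.699).

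The events most like those of the 6 genes were found by the root mean square difference of the fractions over the 6 libraries, among all events of other genes. Fn1 event 2 was closest to events 1 and 2 of Ebf3, a transcription factor (0.00565 and 0.00692). Bmp1 was closest to event 3 of Atg9a, an autophagy protein (0.0211), and event 1 of Keap1, the inhibitor of the transcription factor Nrf2 (0.0283). For Postn event 2 the closest was event 2 of Serpinh1 (0.0151), followed by event 4 of the transcription factor Sox17 (0.0153). Abi3bp event 1 was closest to event 1 of Pomgnt2, a glycosyltransferase that acts on dystroglycan (0.0628), whose fractions were 0.891 and 0.904 with Raver2 knockdown and 9.71e-05 and 3.68e-05 with Setd2 knockdown, against 0.398 and 0.452 in Ctr. Event 1 of C87499 came next (0.0650). The Itga6 event was closest to event 1 of Smox, a spermine oxidase (0.0334), and to event 4 of the histone deacetylase gene Hdac7 (0.0471). These distances are over 6 libraries and describe likeness of fractions alone.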

How the data were processed

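RNA was amplified from sorted mTECs with a SMART-seq kit for low input and made into libraries with Nextera XT, per the labels' protocols. The authors deposited 1 table per library with a gene symbol and an inclusion fraction (0 to 1) per event. Trimmomatic 0.39, TopHat2, Cufflinks and the build mm10 are named in the submitters' processing notes, with no role or setting. How the fraction was computed and filtered is not given in the sources used here.

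Events were joined by gene and order within the gene, for 2685 of 2898 genes with the same number of events in all libraries. In genes with several events, libraries correlated at 0.730 to 0.795 at the same position and at 0.0924 to 0.148 with the next one. limma 3.58.1 in R 4.3.3 modelled the fractions by group mean, with all 6 libraries, a variance trend and two-sided contrasts, and was tested on simulated data. These data had the same spread in every group and shifts larger than most of those called here. The test thus does not cover small shifts or groups of unlike spread. Groups of 2 allow no exact permutation p under 0.333, so none was run. Alternatives changed the scale, the variance model, the libraries and the events. Named were called events, the 2 with the largest moderated t per gene and per list, and the 2 most alike per gene, which for Serpinh1 are not reported here. Members, lists and this rule were chosen with earlier results of these data known. Tables were handled with Python 3.11.15 and pandas 2.3.3.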

Additional observations from a re-analysis of the deposited data

Results flagged for a closer look

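Abi3bp event 1 and Bmp1 event 1 drew attention because the changes under the 2 knockdowns, each against the same Ctr libraries, differed from each other by the test of that difference. Abi3bp event 1 was higher under Raver2 than under Setd2 knockdown by 0.986, with both Raver2 libraries above and both Setd2 libraries below Ctr. Bmp1 event 1 was higher under Raver2 than under Setd2 knockdown by 0.116, with all 4 knockdown libraries above Ctr, and this call was lost without any single library. Groups of 2 libraries allow no outlier test.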

How the results depend on the processing

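Over all events, Raver2 knockdown against Ctr had 113 calls, 75 with only the 4 libraries compared, 10 among events with every fraction between 0.01 and 0.99 (mid-range), and 74 to 291 with 1 library left out. Setd2 knockdown against Ctr had 104, 0 with only the 4 libraries (554 at an unadjusted p under 0.05), 6 among mid-range events and 48 to 279 with 1 library left out. Leaving out either Ctr library moved these counts most upward, to 291 and 280 for Raver2 and 279 and 261 for Setd2 knockdown, while 74 was without Setd2 library 2, and 54 and 48 were without Raver2 libraries 1 and 2. Raver2 against Setd2 knockdown had 34, 0 among mid-range events (107 unadjusted) and 46 to 119 with 1 library left out (56 without Ctr library 2, 119 and 97 without Raver2 libraries 1 and 2, 67 and 106 without Setd2 libraries 1 and 2); on the logit scale it had 19 higher and 23 lower, against 19 and 15. With 1 library left out, the balance of higher and lower calls also turned: without Raver2 libraries 1 and 2 it was 91 to 74 and 65 to 58 for Raver2 knockdown (47 to 66 with all libraries), without Setd2 library 2 it was 79 to 57 for Setd2 knockdown (41 to 63), and between the knockdowns it was 40 to 66 without Setd2 library 2, 22 to 24 without Ctr library 1 and 26 to 30 without Ctr library 2. With only the 4 libraries it was 20 to 26 between the knockdowns. For the 16 listed rows of the 6 genes, leaving out repeated events gave 7, 4 and 2 calls for Raver2 against Ctr, Setd2 against Ctr and Raver2 against Setd2. The 8 calls for Raver2 knockdown against Ctr were 5 without a variance trend, 2 among mid-range events (both Bmp1) and 6 to 9 with 1 library left out. The 5 calls for Setd2 knockdown were 3 without a trend, 0 with only the 4 libraries (12 unadjusted), 0 among mid-range events (3 unadjusted) and 2 to 6 with 1 library left out. The 3 calls between the knockdowns were 1 on the arcsine scale, 1 on the logit scale, 1 with robust moderation, 1 with only the 4 libraries, 0 among mid-range events (2 unadjusted) and 1 to 2 with 1 library left out. Cutting to mid-range events leaves out every Serpinh1, Postn and Abi3bp event and Fn1 event 2 by construction; for the other settings the cause was not tested.

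With the hairpin number as a replicate block, Raver2 against Setd2 knockdown had 0 calls over all events (265 unadjusted) and 0 for the 6 genes (3 unadjusted). The deviations of same-numbered libraries correlated at 0.0146, and the numbers name different hairpins, so nothing pairs them. Of the called events none changed direction in any setting. Among events not called, signs turned when 1 library was left out: Fn1 event 5 (-0.0187 to 0.0822) and Abi3bp event 2 (-0.525 to 0.264) for Raver2 knockdown, Postn event 1 (-0.0289 to 0.0911) for Setd2 knockdown, and, between the knockdowns, Postn event 1 (-0.120 to 5.44e-06), Postn event 2 (-1.02e-06 to 0.0331), Abi3bp event 2 (-0.286 to 0.503, and -0.726 on the logit scale) and Itga6 (-0.0283 to 0.00431). Fn1 events 3, 4 and 5 were not part of this check between the knockdowns. Their Raver2 and Setd2 libraries overlapped, so their signs there are not known to hold. Depth is unknown, so counting error could not be given.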

Other observations

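A pattern noticed after the values were seen, and given without a test, is loss of inclusion in every knockdown library: above 0.01 in both Ctr libraries and below 0.001 in all 4 knockdown libraries. Over all genes, 35 of the 3426 events above 0.01 in both Ctr libraries showed it, in 30 genes. Serpinh1 had 4 of its 4 events among them, Gria3 had 2 of 2 and Slit2 had 2 of 3, and the other genes had 1 each. The reverse, above 0.01 in all 4 knockdown libraries and below 0.001 in both Ctr libraries, was seen for 30 of 3098 events in 25 genes. All events of the 6 genes were above 0.01 in both Ctr libraries and so lay outside this reverse pattern from the start.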
